A study of Mus musculus with 3 samples.

Results

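Collagens are the main structural proteins of the matrix around and between muscle fibres. Each molecule is a triple helix of chains that are separate gene products, and the class of collagen follows from what the helices build. Fibrillar collagens form the ropes of the connective tissue sheaths and the tendon, type IV collagens form the mesh of the basement membrane that wraps every fibre and capillary, and FACIT collagens sit on the surface of fibrils. The others include the beaded filaments of type VI, which link the basement membrane to the surrounding matrix, and chains of vessels, skin and cell membranes. In muscle most collagen RNA comes from fibroblasts, tendon cells and the cells of vessels, while basement membrane chains are made by several cell types.

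The collagen chains were taken as every probe set (a group of short oligonucleotide probes for one transcript) whose single gene symbol was Col, a number, the letter a and a number. This gave 82 probe sets of 42 genes, of 18193 genes with a probe set of their own. Of the 42 genes, 11 encode fibrillar chains, 6 basement membrane chains, 9 FACIT chains and 16 other chains. Col6a6 and Col28a1 were not analysed here.

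The RNA came from gastrocnemius, a calf muscle, of C57BL/CD1 mice that all carried the Akt_Cre transgene, described as a muscle-expressed fusion of the growth kinase Akt with a ligand-binding domain of the oestrogen receptor. The sample descriptions say that tamoxifen stabilises the fusion, while the titles speak of raised Akt expression and the genotype name refers to Cre; the sources used here do not say how these relate. One group was given oil and killed at 24 h, and the other groups were given tamoxifen and killed at 24 h or at 48 h. Each of the 3 groups was measured on 1 Affymetrix Mouse 430 2.0 array of RNA pooled from 3 to 4 mice. The promoter that drives the transgene and the age of the mice are not given in the sources used here. There is no replicate error, no test between groups was possible and no p-value is given. Values are intensities scaled to a common median, ratios are linear folds unless called log2, and the word called means 2-fold or more. No 48 h oil array was analysed, so time and treatment cannot be told apart at 48 h, and the same oil array is the reference at both times. In whole muscle, fewer cells of a type and less RNA per cell cannot be told apart.

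Of the 42 genes, 31 had a probe set whose percentile rank, averaged over the 3 arrays, was at least 0.5, and only these were compared. They held 48 such probe sets, 15 genes with 1 and 16 genes with 2 or more. None of the 48 was at the floor of 4.05 on any array. Each gene was read on its brightest probe set, and the others are given beside it. Muscle fibre markers were present, with 10 of 10 compared, a summed intensity of 87321 (oil), 85302 (24 h) and 87889 (48 h), and medians of -0.01 and 0.01 in log2 at 24 h and 48 h. Akt1 read 100.2, 133 and 112 in the same order, on the brightest of its 2 kept probe sets. Akt2 read 220, 280 and 231 on the brightest of 3. Whether any Akt1 probe set detects the fusion was not tested.

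Few collagen chains were called, and their share was near that of all genes. Against oil at 24 h, 0 of 31 were called higher, where 2.35% of all 11092 genes were, and 1 was called lower, where 2.48% were (either way 4.83%). Against oil at 48 h, 1 was called higher (3.72% of all genes) and 1 lower (2.71% of all genes, and 6.44% either way). In tamoxifen 48 h against 24 h none was called in either direction, where 1.8% of all genes were higher, 1.42% lower and 3.22% either way. The median log2 ratio of the 31 genes was -0.08 at 24 h and 0.01 at 48 h, beside 0.04 and 0.01 for all genes. The called chains were Col12a1 (lower at 24 h), Col1a1 (higher at 48 h) and Col4a4 (lower at 48 h).

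**Figure D1:**
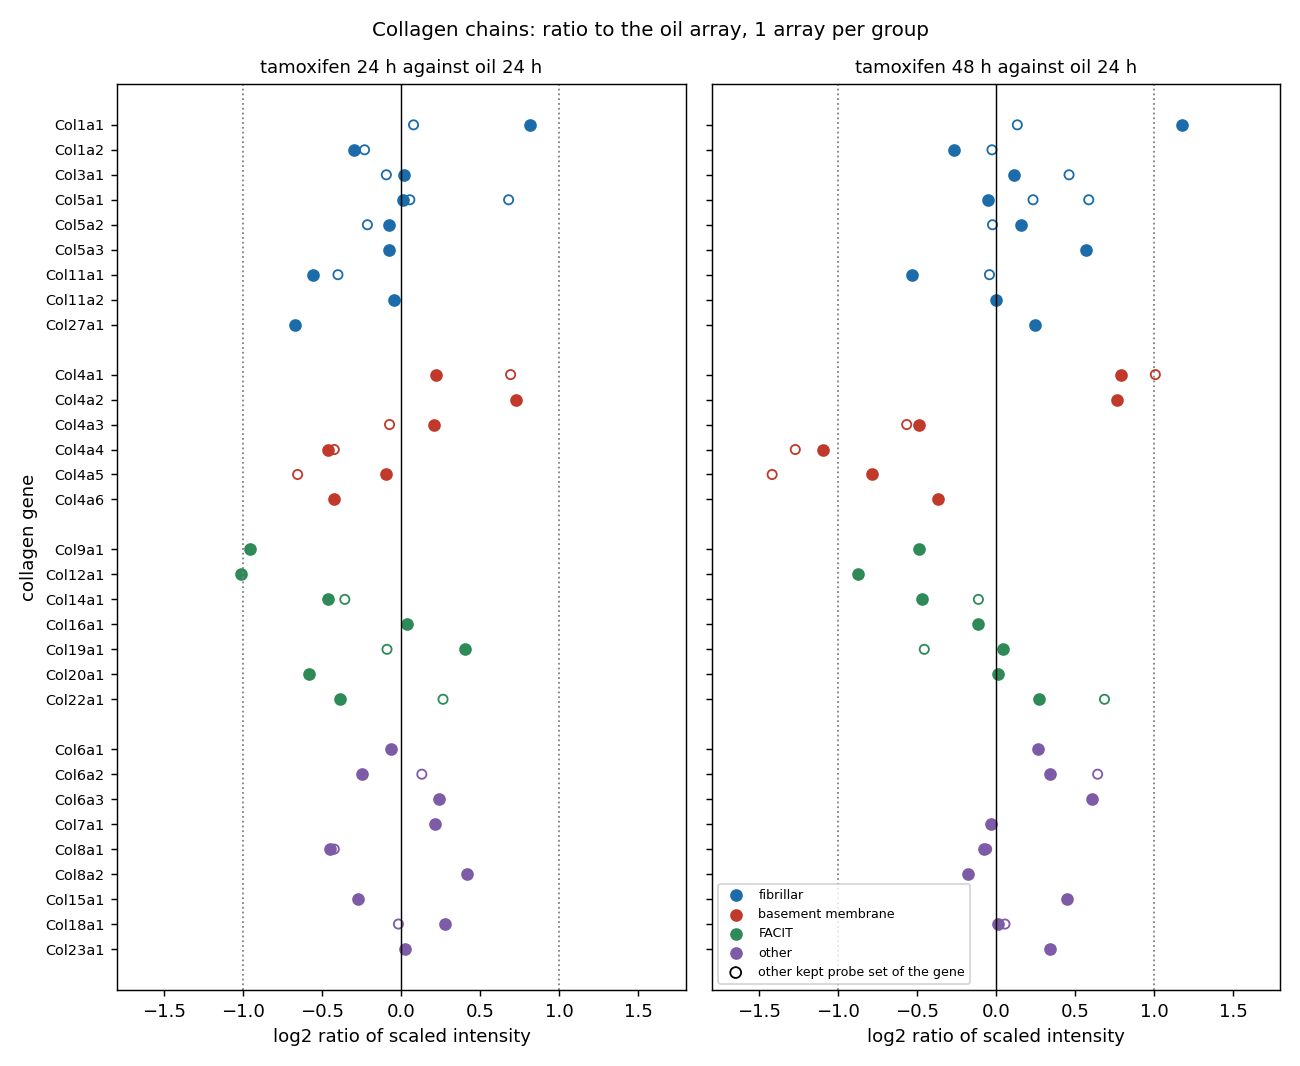
Log2 ratio of scaled intensity to the oil array for each collagen gene compared, at 24 h (left) and 48 h (right); filled points are the brightest probe set, open points other probe sets of the gene that passed the filter, and dotted lines mark 2-fold. Most points lie within 2-fold, and the type IV chains in red spread to both sides at 48 h, from Col4a4 at -1.10 to Col4a1 at 0.79.

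The basement membrane class held chains on both sides of oil at 48 h. Type IV collagen has 6 chains, encoded by gene pairs that are neighbours in the RefSeq annotation of GRCm38.p6: Col4a1 with Col4a2, Col4a3 with Col4a4 and Col4a5 with Col4a6. As background, the chains of the first pair make the common network found in nearly all basement membranes, and the chains of the other pairs make networks of more limited distribution, known best from kidney, where loss of the Col4a3, Col4a4 or Col4a5 chain causes Alport syndrome. As background, the genes of a pair are read in opposite directions from a shared or nearby start region, so short stretches of it are shown, with motifs in capitals. Each is 30 bases of the RefSeq window around an annotated start in GRCm38.p6, read 5′ to 3′ on the strand of the named gene. The first lies just before the Col4a2 start at chr8:11312773-11312802 on the plus strand, the second at chrX:141475373-141475402 on the plus strand, and the third at chrX:141474077-141474106 on the minus strand.
Col4a2: CCAATttgttggcgctgcCCCCTCCCCtcg
Col4a5: agcgccagcGGGGAGGGGGCGGtgcaggga
Col4a6: caggcagccCCGCCCcgtccccctccattc

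Capitals mark the CCAAT box (CCAAT), the CTC box (CCCCTCCCC) and the GC box (GGGCGG), each searched on both strands, and in the Col4a5 stretch the last 2 overlap. The CTC box stood in the windows of Col4a1, Col4a2 and Col4a5, not in those of Col4a4 and Col4a6, and in 6.37% of 32851 windows of 300 bases over all genes. The CCAAT box was in the same 3 windows and in 37.4% of all windows. The GC box was in 4 of the 5 (all but Col4a4) and in 35.7% of all. A TATA box (TATAAA, 13.6% of all windows) and a FoxO motif (GTAAACA, 3.65% of all) were in none of the 5. Windows of Col4a1 and Col4a2 overlap by 78 bases, so a motif there can count for both. The G and C content was 74.0% for Col4a1 and 73.7% for Col4a2, 63.3% for Col4a4, 52.7% for Col4a5 and 48.3% for Col4a6, beside a median of 52.7%. Of the 42 collagen genes, 33 had a window in the table, and Col4a3 was not among them. A match of letters is a description and not a site.

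Col4a1 read 963 (oil), 1121 (24 h) and 1663 (48 h), and its other probe set read 287, 463 and 576. Col4a2 read 365, 603 and 621 on its only probe set. All 3 probe sets of this pair were higher than oil at both times, by 1.16-fold to 1.65-fold at 24 h and by 1.70-fold to 2.01-fold at 48 h. Col4a1 on its brightest probe set was 1.73-fold higher at 48 h, short of the call, and its dimmer one reached 2.01-fold. Timing depended on the probe set: from 24 h to 48 h the brightest Col4a1 probe set was 1.48-fold higher, the other one 1.25-fold and Col4a2 1.03-fold. Col4a2 and the dimmer Col4a1 probe set were already 1.65-fold and 1.61-fold above oil at 24 h.

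The other pairs were below oil at 48 h. Col4a4 read 42.7 (oil), 31.0 (24 h) and 20.0 (48 h), 2.14-fold lower, and its other probe set read 39.1, 29.1 and 16.2. A further probe set of the gene did not pass the filter. Col4a3 read 22.3, 25.6 and 15.9 on one probe set and 21.5, 20.4 and 14.6 on the other, 1.40-fold and 1.48-fold lower at 48 h. Both probe sets of Col4a3 were highest on the tamoxifen 24 h or the oil array and lowest at 48 h. Col4a5 read 114, 107 and 66.3, 1.72-fold lower at 48 h, and 43.7, 27.7 and 16.4 on the other probe set, 2.67-fold lower. Col4a6 read 23.9, 17.8 and 18.5, 1.35-fold lower at 24 h and 1.29-fold lower at 48 h. A further probe set of Col4a6 was at the floor on all arrays and did not pass the filter.

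All genes of this set of 4 were below oil at 48 h, where 49.4% of all genes were below 0. Their 7 kept probe sets, which are not independent of each other within a gene, were at log2 ratios from -1.42 to -0.37. At 24 h 3 of the 4 genes were below oil, where 46% of all genes were, and 6 of 7 probe sets, from -0.66 to 0.20. The split of the chains into these sets was chosen after their values were seen. The directions at 48 h held under all 9 alternatives of processing in which a chain was measured: Col4a1 and Col4a2 ran from 0.69 to 0.90 in log2, Col4a3 from -0.55 to -0.39, Col4a4 from -1.18 to -1.01, Col4a5 from -1.10 to -0.71 and Col4a6 from -0.43 to -0.27. Not every alternative could change a value. The other floors left all of these values as they were. The median over probe sets could not move Col4a2 and Col4a6, which had no other kept probe set. At 24 h Col4a5 was on either side of 0 (-0.38 to 0.19). Col4a3, Col4a4 and Col4a6 were dim. Col4a5 was the only one of the 4 on which a probe set passed a stricter filter at rank 0.75 (its rank was 0.798). A class median of 0.05 at 24 h and -0.43 at 48 h hides the split.

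**Figure D2:**
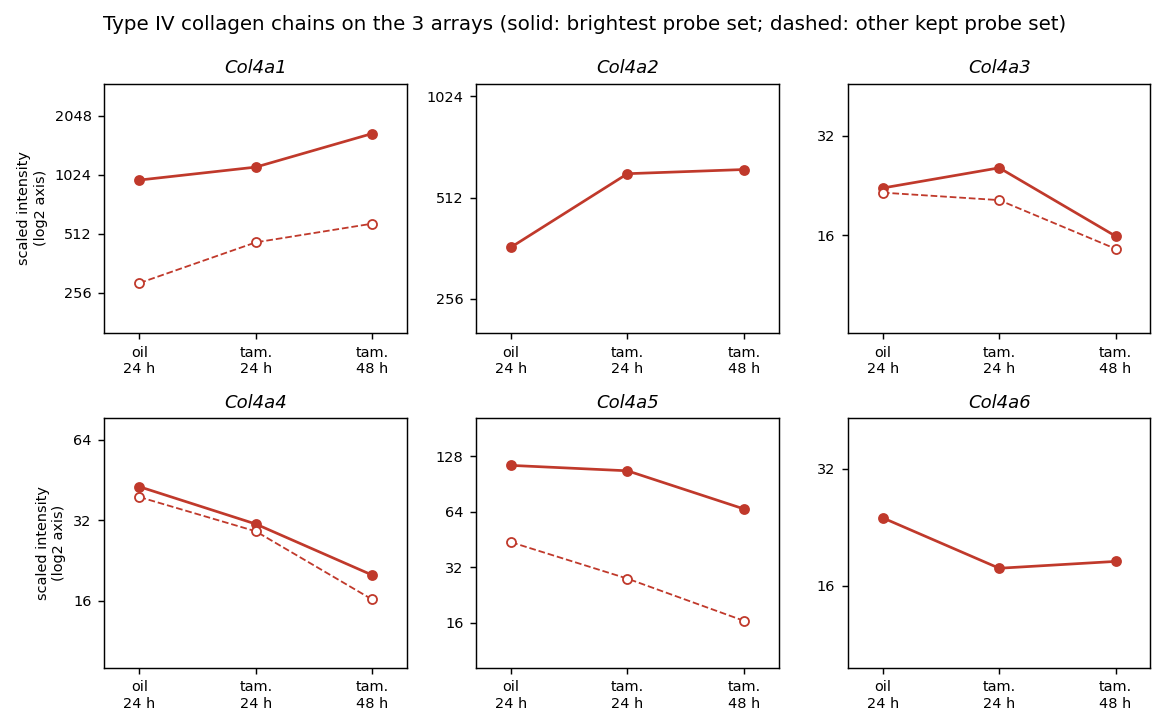
Scaled intensity (log2 axis, a different range in each panel) of the 6 type IV chains on the oil 24 h, tamoxifen 24 h and tamoxifen 48 h arrays; solid lines are the brightest probe set, dashed lines the other probe set that passed the filter. Col4a1 and Col4a2 are higher on both tamoxifen arrays (Col4a1 963, 1121 and 1663), and Col4a3 to Col4a6 are lower at 48 h than on oil (Col4a4 42.7, 31.0 and 20.0).

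Endothelial markers are given beside these chains, since capillaries carry much basement membrane. Of 8 endothelial markers compared, 4 were above oil at 24 h and 2 at 48 h, with a median of 0.01 and -0.38 in log2 and a summed intensity of 1330.2 (oil), 1215 (24 h) and 1006 (48 h). Smooth muscle and pericyte markers had 0 of 7 above oil at 24 h and 1 of 7 at 48 h (medians -0.33 and -0.36, sums 5244, 3896 and 3801). None of these markers was at the floor on all arrays. These sums were lower at 48 h, as Col4a3 to Col4a6 were, and opposite to Col4a1 and Col4a2; their part in the values of either set was not tested.

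Other basement membrane proteins went both ways as well. Of 12 laminin, nidogen and proteoglycan genes compared, none was called at 24 h (4.83% of all genes either way). At 48 h 2 were called higher and 1 lower (background 3.72% and 2.71%). The medians were 0.07 and 0.10. Lamb3, a laminin beta chain of epithelia, read 15.4, 23.5 and 42.2. Hspg2, which encodes perlecan, the large proteoglycan of basement membranes, read 81.3, 78.3 and 185, or log2 ratios of -0.05 and 1.18. Its other probe set differed at both times, with 0.79 at 24 h and 0.63 at 48 h, and was not called. Agrn, which encodes agrin, the organiser of acetylcholine receptors, read 65.3, 47.0 and 27.7, 2.36-fold lower. Lama2, the laminin chain of the muscle fibre membrane, was nearly level at 246, 278 and 244.

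Among fibrillar collagens, Col1a1 was the chain furthest from oil. Type I collagen is built from Col1a1 and Col1a2 chains, and type III from Col3a1 alone. Col1a1 read 536 (oil), 943 (24 h) and 1211 (48 h), 1.76-fold and 2.26-fold higher. Its other probe set did not show this, at 209.7, 221 and 230.1, or 1.05-fold and 1.10-fold higher. With the median of both probe sets, Col1a1 was at 0.66 in log2 at 48 h and was not called.

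Col1a2 did not follow the brighter Col1a1 probe set. It read 3017 (oil), 2451 (24 h) and 2507 (48 h), 1.23-fold and 1.20-fold lower, with its second probe set at 1536, 1306 and 1508. Col3a1 read 3559.9, 3605 and 3843, within 1.08-fold of oil at both times, and 325, 304 and 448 on its second probe set, 1.38-fold higher at 48 h. So of 6 probe sets for types I and III, 3 were above and 3 below oil at 24 h, and 4 were above at 48 h.

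Types V and XI join the fibrils of types I and II and set their diameter. Col5a1 read 239, 241 and 231 on its brightest probe set, all within 1.04-fold of each other. Its other probe sets read 155, 160.4 and 182, and 36.1, 57.8 and 54.2, the last 1.60-fold higher at 24 h. Col5a2, which lies next to Col3a1 in the genome, read 484, 459 and 541 and, on a second probe set, 127, 109 and 125. Col5a3 read 133, 126 and 198, level at 24 h and 1.49-fold higher at 48 h. Within type V the 48 h folds of the brightest probe sets were thus 1.03-fold lower for Col5a1, 1.12-fold higher for Col5a2 and 1.49-fold higher for Col5a3.

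The remaining fibrillar chains, several of them better known from cartilage, were dim. Col11a1 read 44.1, 29.8 and 30.4, lower than oil on both tamoxifen arrays by 1.48-fold and 1.45-fold, but its second probe set, at 35.9, 27.2 and 34.9, was back near oil at 48 h. Col11a2 was level at 26.6, 25.7 and 26.5. Col27a1 read 49.8, 31.2 and 58.9, the lowest at 24 h, and was 1.89-fold higher at 48 h than at 24 h. Col2a1 and Col24a1 did not pass the filter. The fibrillar median over 9 genes was -0.08 at 24 h and 0.11 at 48 h in log2, beside 0.04 and 0.01 for all genes. Between the tamoxifen arrays 14 of 16 fibrillar probe sets, and 8 of 9 genes, were higher at 48 h, where 46.9% of all genes were. The median over these genes was 0.09, beside -0.02 for all genes. Without scaling it was -0.06, beside -0.18 for all genes, so its sign depends on how the arrays are scaled. In both settings it lay above the median of all genes.

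**Figure D3:**
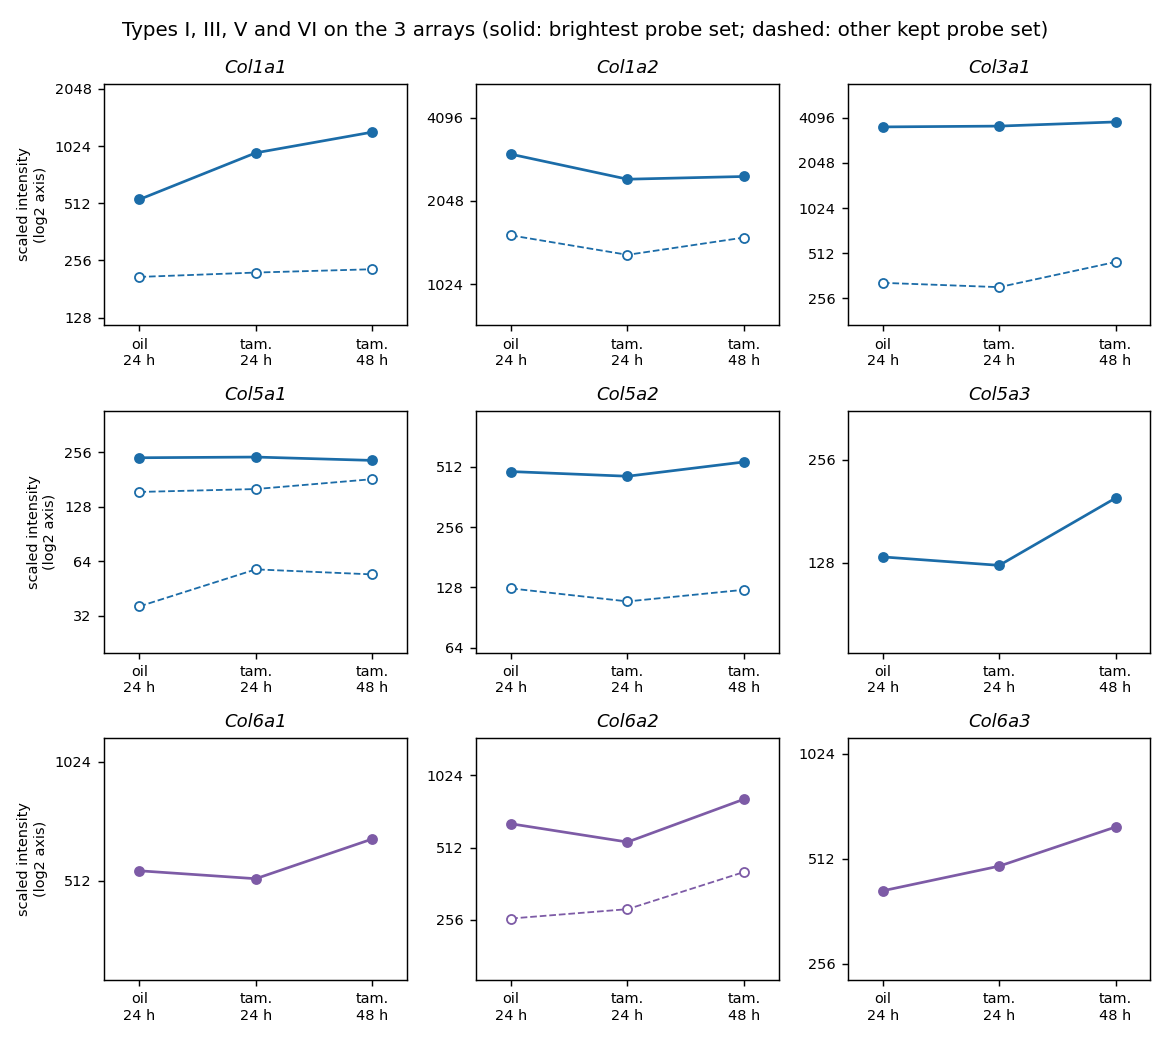
Scaled intensity (log2 axis, a different range in each panel) of the chains of types I, III and V (blue) and VI (purple) on the oil 24 h, tamoxifen 24 h and tamoxifen 48 h arrays; solid lines are the brightest probe set and dashed lines the others that passed the filter. The brighter Col1a1 probe set goes from 536 to 1211 while the dimmer one stays between 209.7 and 230.1, and all type VI lines are highest at 48 h.

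FACIT chains had the lowest median of the 4 classes at 24 h, -0.46 in log2 over 7 genes, with 5 of the 7 below oil, and -0.11 at 48 h with 4 below. The spread of single chains was wide beside so small a set. Col12a1, a FACIT chain of tendon and fascia that coats type I fibrils, read 44.5 (oil), 22.0 (24 h) and 24.3 (48 h), 2.02-fold and 1.83-fold lower. Its call at 24 h was lost without scaling (-0.92 in log2), with quantile (-0.88) or loess (-0.90) normalization, with the filter at rank 0.25 (-0.88) and with no filter (-0.72), and at rank 0.75 the gene was not measured. A second Col12a1 probe set lay just below the filter, at 20.4, 23.3 and 6.76, and was not lower at 24 h.

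Col14a1, a related chain of fibril surfaces in tendon and skin, read 168, 122 and 122, 1.38-fold lower at both times, with its second probe set at 62.0, 48.4 and 57.4. Col9a1, the partner of type II collagen in cartilage, read 38.9, 20.0 and 27.8, 1.94-fold lower at 24 h, and a probe set below the filter read 21.1, 1.95 and 19.3. Col22a1, which marks the junction between muscle fibre and tendon, read 73.6, 56.2 and 88.9 on one probe set and 33.8, 40.5 and 54.3 on the other. Both of these Col22a1 probe sets were highest at 48 h, by 1.21-fold and 1.61-fold over oil, and they differed in direction at 24 h. A further Col22a1 probe set, below the filter, read 20.02, 16.1 and 4.45, 4.50-fold lower at 48 h. Col19a1, a chain made by developing muscle, read 37.2, 49.2 and 38.3, with its second probe set at 18.2, 17.1 and 13.3. Col16a1 read 56.7, 58.1 and 52.5, and Col20a1 read 26.6, 17.7 and 26.9. Col9a2 and Col9a3 did not pass the filter.

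Tendon cell markers are given beside the FACIT chains. Of 9 compared, 7 were below oil at 24 h and 7 at 48 h, with medians of -0.42 and -0.62 and summed intensities of 3872 (oil), 3106 (24 h) and 3417 (48 h). At 48 h the FACIT median was nearer to oil than at 24 h and the tendon marker median further from it. Cilp2, a matrix protein, read 74.5, 72.9 and 13.7. It was the 1 tendon marker called (lower at 48 h, where 2.71% of all genes were). Thbs4, a tendon thrombospondin, read 809.98, 928 and 1549.6, 1.91-fold higher at 48 h. None was at the floor on all arrays, and Mkx did not pass the filter. Fibroblast markers had 5 of 8 below oil at 24 h and 6 of 8 at 48 h, with medians of -0.08 and -0.24 and sums of 11767, 10804 and 9949. Their part in the collagen values was not tested.

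The 3 main type VI chains were higher than oil together at 48 h. Type VI filaments surround each muscle fibre, and loss of any of these chains causes Bethlem or Ullrich muscle disease. Col6a1 read 543 (oil), 518 (24 h) and 653 (48 h). Its genomic neighbour Col6a2 read 643, 539.7 and 814, with a second probe set at 259, 283 and 405. Col6a3 read 415, 488 and 632. At 48 h the brightest probe sets were 1.20-fold, 1.27-fold and 1.52-fold higher for Col6a1, Col6a2 and Col6a3, none of them called. All 3 genes, on 4 kept probe sets, were above oil at 48 h (50.6% of all genes) and above the 24 h array (46.9% of all genes). The genes kept both directions under all 9 alternatives. The other floors among these could not change them, and the median over probe sets could not move Col6a1 and Col6a3, which had no other probe set. At 24 h 2 of the 4 probe sets were above oil and 2 below. The median of all 9 other collagens at 48 h was 0.27, beside 0.01 for all genes. Col6a4 and Col6a5 did not pass the filter.

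No remaining chain was called on any pair of arrays. Col15a1, a multiplexin of muscle and capillary basement membranes, read 67.9, 56.1 and 92.5, 1.65-fold higher at 48 h than at 24 h. Col18a1, the multiplexin from which endostatin is cut, read 52.5, 63.4 and 52.9, with a second probe set at 39.5, 39.0 and 41.1. Col8a1, a short chain of vessel walls, read 98.7, 72.2 and 93.6, lower at 24 h by 1.37-fold, and its second probe set, at 55.8, 41.5 and 53.5, had the same shape. Its partner Col8a2 had the opposite shape, at 17.5, 23.3 and 15.4. Col7a1, which forms the anchoring fibrils of skin, read 30.8, 35.7 and 30.2. Col23a1, a transmembrane collagen, read 18.0, 18.3 and 22.8. The transmembrane chains Col13a1 and Col25a1, both known from the neuromuscular junction, did not pass the filter, nor did Col10a1, Col17a1 and Col26a1.

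Probe sets of a collagen gene did not always go in one direction. Of the 16 genes with 2 or more, all probe sets had the same sign in 10 at 24 h and in 13 at 48 h. The same share over all genes was not computed, so these counts are a description only. The standard deviation of log2 ratios between probe sets of a gene was 0.28 at 24 h and 0.30 at 48 h for collagens, beside 0.49 and 0.41 over the 5001 such genes on the array. This is a technical yardstick that does not measure variation between mice. With 1.5-fold as the size, 2 of 31 chains were higher and 4 lower at 24 h, where 9.57% and 9.02% of all genes were (18.6% either way), and 4 were higher and 3 lower at 48 h, where 11.7% and 10.7% were (22.4% either way). Between the tamoxifen arrays 6 were higher at 48 h and 4 lower, where 6.91% and 5.84% of all genes were (12.8% either way). Without scaling 1 was higher and 4 lower, where 15.5% of all genes passed 1.5-fold either way. Higher and lower counts were 5 and 4 with quantile (12.3%) or loess normalization (12.6%), and 4 and 4 with the median of probe sets (12.2%). They were 5 and 1 of 16 chains at rank 0.75 (7.14%), 3 and 6 of 39 at rank 0.25 (23.7%), and 3 and 7 of 42 with no filter (24.8%). The chains past 1.5-fold at 48 h against oil were Col1a1, Col4a1, Col4a2 and Col6a3 higher and Col4a4, Col4a5 and Col12a1 lower.

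Genes that fold, cut and crosslink collagen were mostly near oil. Of 17 hydroxylases and helix-folding genes compared, none was called at either time, and medians were 0.06 and 0.12. Over all genes 4.83% were called either way at 24 h and 6.44% at 48 h, so a count of 0 in so short a list is near that share. P4hb, a subunit of prolyl 4-hydroxylase that is also a general disulphide isomerase, read 925, 1174 and 1356. Serpinh1, the collagen chaperone HSP47, read 409, 395 and 424, with its other probe set at 0.03 and 0.37 in log2. Colgalt1, which adds galactose to hydroxylysine, read 200.3, 232 and 311, but its other probe set was at -0.01 and 0.13 in log2. Of 8 cleavage and crosslinking genes, 1 was called lower at 24 h (2.48% of all genes) and none at 48 h (2.71%), with medians of 0.01 and -0.24. That gene, the lysyl oxidase family member Loxl4, read 25.5, 9.97 and 15.0, close to the floor, while the brighter Loxl1 read 265, 283 and 427. Pcolce, which speeds removal of the procollagen end piece, read 1143, 747 and 884, with its other probe set at -0.14 and 0.09 in log2.

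Small proteoglycans and glycoproteins that sit on fibrils were below oil in most cases, though none of the 12 was called. Of all genes, 4.83% were called either way at 24 h and 6.44% at 48 h. At 24 h 9 of 12 were below (46% of all genes) and at 48 h 11 of 12 (49.4% of all genes), with medians of -0.20 and -0.33. Dcn (decorin) read 5837, 4645 and 4387, Fmod (fibromodulin) 1581, 1073 and 926, and Ogn (osteoglycin) 1441, 912 and 735. Tnxb (tenascin X), at 268, 338 and 317, was the exception at 48 h.

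Of 6 collagen receptors compared, 2 were called lower at 24 h (2.48% of all genes) and none at 48 h (2.71%), with medians of -0.35 and -0.46. Itga1, the integrin chain for type IV collagen, read 62.8, 28.2 and 32.5, but its other probe set was at -0.07 and -0.22 in log2. Gp6, the collagen receptor of platelets, read 23.7, 9.34 and 15.2. Of 8 genes of collagen breakdown and its inhibitors, none was called against oil at 24 h (4.83% of all genes either way) or 48 h (6.44%). Their medians were -0.08 and -0.12. Timp1, a protease inhibitor, read 29.6, 18.1 and 48.3 and was higher at 48 h than at 24 h by 1.41 in log2. TGF-beta signalling is a main inducer of fibrillar collagens. Of 11 of its genes and matrix targets, none was called at 24 h (4.83% of all genes either way). At 48 h 1 was called higher (3.72% of all genes): Tgfb1, at 28.5, 53.7 and 58.2. The medians were 0.03 and -0.27, and Ccn2, a matrix protein downstream of TGF-beta, read 271, 421 and 181.

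**Figure D4:**
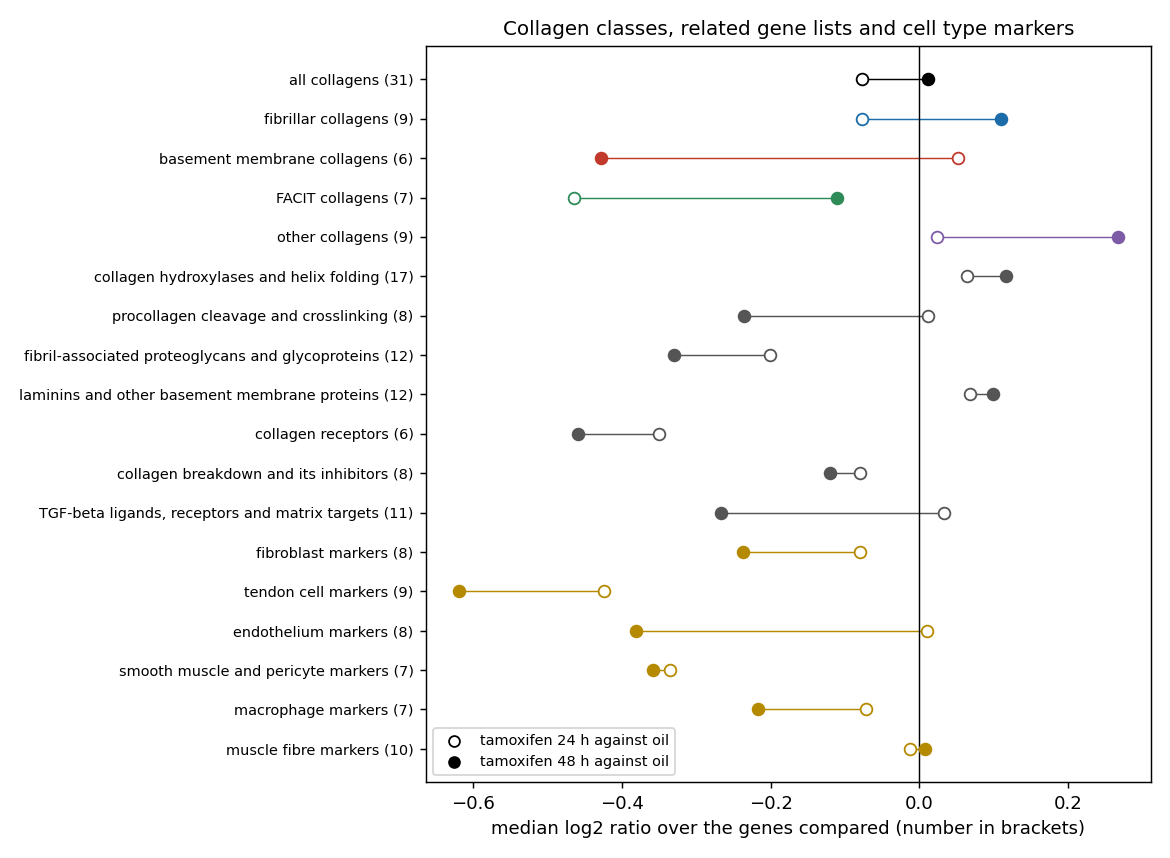
Median log2 ratio to the oil array at 24 h (open) and 48 h (filled) for the collagen classes, the related gene lists and the cell type marker lists with at least 5 genes compared; the number of genes is in brackets. The FACIT class lies at -0.46 at 24 h and the basement membrane class at -0.43 at 48 h, tendon cell markers at -0.42 and -0.62, and muscle fibre markers near 0.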

How the data were processed

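The authors deposited 1 table of intensities, on a linear scale, for 45101 probe sets on 3 arrays. Their summary and background method for the scans: not given in the sources used here. Detection calls played no part. After removal of 64 control probe sets, the platform annotation gave 1 gene to 34945, several genes to 932, none of them a collagen, and did not list 9160. Symbols were updated by Entrez identifier to RefSeq GRCm38.p6, which changed 0 collagen symbols.

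Probe sets with a mean percentile rank of 0.5 or more (21804) were kept, arrays were scaled to a common median over them (factors 1.01, 0.944 and 1.05), values below the 25th percentile (4.05) were set to it and log2 was taken. The kept probe set of highest mean rank stood for its gene, which left 11092 genes. Just above the filter lay Col19a1 (second probe set, rank 0.525) and Col8a2 (0.548), and just below it Col12a1 (second probe set, 0.498) and Col23a1 (second probe set, 0.479).

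The size rule was 2-fold. All 31 collagen genes compared are named, with up to 6 called members of each related list; other list members were named after their values were seen. Collagen classes, lists and markers were chosen with earlier results of these data known. The processing was tested on simulated data (Python 3.11.15, numpy 2.4.6, pandas 2.3.3, scipy 1.17.1, statsmodels 0.14.6 for loess). Alternatives were no scaling, quantile and loess normalization, other filters and floors, the median over kept probe sets, and 1.5-fold. With 1 array per group, their number limits the precision.

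Markers of other cell types gave these further medians at 24 h and 48 h: -0.07 and -0.22 for 7 macrophage genes, -0.19 and -0.20 for 3 Schwann cell genes, 0.68 and 0.04 for 2 adipocyte genes, -0.03 and 0.38 for 2 chondrocyte genes, and -0.13 and -0.03 for 1 erythroid gene. Outside the tendon list, the markers called against oil were Cidec (adipocyte), higher at 24 h, and Myh11 (smooth muscle) and Cd163 (macrophage), lower at 48 h. Of all genes, 2.35% were called higher at 24 h and 2.71% lower at 48 h.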

Additional observations from a re-analysis of the deposited data

Results flagged for a closer look

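Of 34 collagen probe sets below the filter, which entered no comparison, 3 were at least 2-fold above oil on a tamoxifen array and 5 at least 2-fold below it. The same shares over all probe sets below the filter were not computed, so these counts are a description only and no result about collagens. One probe set of Col26a1, a secreted collagen with an EMI domain, was at a log2 ratio of 2.01 at 24 h, with intensities of 2.99 on oil, 16.3 at 24 h and 6.51 at 48 h. A further probe set of Col1a2 was at 1.47 at 48 h, with 2.72, 0.202 and 11.2. Col17a1, a transmembrane chain of the skin hemidesmosome, was at 1.23 at 48 h, with 1.71, 7.63 and 9.47. For these 3 the oil value lay under the floor of 4.05, so the log2 ratios are lower bounds, and no replicate stands behind them. Those below oil were probe sets of Col9a1 (log2 ratio -2.38 at 24 h), Col22a1 (-2.17 at 48 h), Col12a1 (-1.60 at 48 h), Col14a1 (-1.58 at both times) and Col25a1 (-1.07 at 24 h and -1.02 at 48 h). The tamoxifen values of Col9a1 at 24 h, Col14a1 at both times and Col25a1 at 24 h were under the floor, so these are bounds. The other Col26a1 probe set was at 2.49, 2.09 and 4.37. Of the 34, 10 were at the floor on all 3 arrays.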

How the results depend on the processing

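No paired analysis was possible because each group is 1 array. A median counted as moved when it shifted by more than a standard error made from the spread between probe sets of one gene; of 195 values for counts and medians under the alternatives, 149 did not move and 46 did. Of 792 values for single genes, 791 stayed within that spread, none reversed after a call, and Col1a1 at 48 h was at 0.66 with the median of its probe sets. Many of these values could not move. The other floors left them as they were, and the median over probe sets cannot change the 15 genes with 1 kept probe set. No scaling shifts every gene of a comparison alike, and the other filters do so through the scaling. The count of 791 therefore says little about how firm the values are.

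Counts of called chains against oil at 24 h were 1 higher at a filter of rank 0.25 (5.7% of all genes) and 5 higher with no filter (7.4% of all genes). These 5 were Col17a1, Col1a1, Col26a1, Col4a2 and Col6a4, and the median of all genes with no filter was itself 0.19. None was lower without scaling (1.86% of all genes), with quantile (1.87%) or loess (1.96%) normalization, at rank 0.75 (1.2%) or with no filter (4.27%). The 1 lower at rank 0.25 (5.96%) was Col25a1, not Col12a1. At 48 h, 2 were higher at rank 0.25 (6.72% of all genes) and with no filter (6.12%) and 0 with the median of probe sets (3.57%). At the same time 0 were lower at rank 0.75 (1.64%) and 2 with the median of probe sets (2.56%). For 48 h against 24 h, 1 was higher at rank 0.25 (5.05%) and with no filter (3.75%), and 1 (4.55%) and 2 (5.55%) were lower. With 1.5-fold, higher and lower counts were 2 and 4 at 24 h and 4 and 3 at 48 h. For 48 h against 24 h they were 6 and 4 (1 and 4 without scaling, 5 and 4 with quantile or loess normalization). The shares of all genes past 1.5-fold either way were 18.6%, 22.4% and 12.8% (15.5% without scaling, 12.3% with quantile and 12.6% with loess normalization).

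The collagen median at 24 h was 0.017 without scaling, 0.049 at rank 0.25 and 0.12 with no filter, beside 0.13, 0.13 and 0.19 for all genes. At 48 h it was 0.23 at rank 0.75. For 48 h against 24 h it was -0.064 without scaling (all genes -0.18), 0.37 at rank 0.75, -0.038 with no filter and 0.19 with the median of probe sets. Class medians at 24 h with no filter were 0.21 (fibrillar), 0.34 (basement membrane), -0.10 (FACIT) and 0.27 (other); basement membrane was -0.16 with the median of probe sets and other collagens -0.31 at rank 0.75. At 48 h basement membrane was 0.73 at rank 0.75, where few dim chains are left, and other collagens were 0.065 at rank 0.25 and 0.068 with no filter. For 48 h against 24 h, fibrillar was -0.064 without scaling and -0.089 with no filter, basement membrane 0.061 at rank 0.75 and -0.51 with no filter, FACIT 0.35 at rank 0.75, and other collagens 0.18 without scaling and 0.048 with no filter. Scaling used the kept probe sets, so each other filter also shifted the genes above the floor alike, as no scaling did. With no filter at 24 h, Col1a1 went from 0.81 to 1.11 and Col4a4 from -0.46 to -0.17, where the median of all genes was 0.19. How far each moved median came from this shift, and how far from the change in genes kept, was not tested.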
